A study of Mus musculus with 8 samples.

Results

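Mouse embryonic stem (ES) cells with a knockdown of Gadd45a were set against wild-type ES cells, 1 array of each, out of 8 arrays in the series. Both arrays measured mDIP, in which sonicated, denatured DNA is precipitated with an antibody against 5-methylcytidine, and antibody-bound DNA (Cy5) was hybridised with input DNA of the same sample (Cy3) to an Agilent array of CpG islands. The labels give "Gadd45a knock down" and "wild type" as genotypes. They name neither the ES cell line and the means of the knockdown nor a number of clones, and no control treatment is given for the wild-type cells. The other 6 arrays, used only for values side by side, hold aid-/- ES cells, mbd4-/- ES cells, and the liver and the spleen from C57BL6/J mice aged 6 months, each from aid-/- and from mbd4-/- animals. The series was set up to examine demethylation of CpG islands in ES cells, and this comparison asks which islands differ in bound DNA when Gadd45a is reduced.

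The value of a probe is log2 of bound over input after subtraction of the array's median. Probes with starts up to 500 bp apart were joined, and 12824 regions of 3 or more probes on chromosomes 1 to 19 were compared, with a median of 5 probes per region. A region value is the mean over its probes, given with the SD over probes. With 1 array per group there is no test, and every difference below compares those arrays. A region was counted as higher or lower in the knockdown when its mean difference reached 1 (log2) and 75% or more of the probes had the same sign as the mean.

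Methylation of cytosine in CpG dinucleotides is written by DNA methyltransferases and removed either passively at replication or by active routes. In the active routes, Tet enzymes oxidise 5-methylcytosine or deaminases convert it, and glycosylases and base excision repair then replace the base. Gadd45a, induced by p53 after DNA damage, is a small nuclear protein without enzyme activity that has been proposed to bring such repair factors to methylated DNA. Most CpG islands at gene starts are unmethylated in ES cells, while many islands inside genes, at germline genes and at imprinted loci carry methylation.

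Probe sequences from the regions that the results turn on are shown first, in lower case with each CpG in capitals, because the antibody recognises methylated cytosine at these sites. In each region the probe with the most CpGs was taken, or the one at the lowest position where probes tied, and positions are in build mm9. The first pair comes from the Nefm and 1190002H23Rik islands, which were higher in the knockdown. The next 5 come from islands that were lower, and the last pair from Sall4 islands that differed by less than 1.
Nefm, chr14:68742788-68742832: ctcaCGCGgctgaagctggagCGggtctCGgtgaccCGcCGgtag
1190002H23Rik, chr14:79700949-79700993: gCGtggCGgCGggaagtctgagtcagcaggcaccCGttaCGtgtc
Ston2, chr12:92885896-92885940: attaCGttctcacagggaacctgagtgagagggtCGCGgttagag
Wnt3a, chr11:59063276-59063320: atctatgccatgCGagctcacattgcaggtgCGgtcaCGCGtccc
Wnt3, chr11:103673964-103674008: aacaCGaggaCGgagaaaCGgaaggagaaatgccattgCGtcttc
Cdkn1a, chr17:29235470-29235514: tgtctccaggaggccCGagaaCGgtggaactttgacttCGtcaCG
Sall4, chr2:168581330-168581374: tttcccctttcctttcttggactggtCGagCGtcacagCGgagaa
Sall4, chr2:168577925-168577969: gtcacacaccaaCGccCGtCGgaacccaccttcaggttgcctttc
Sall4, chr2:168590657-168590701: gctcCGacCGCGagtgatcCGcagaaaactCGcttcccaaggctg

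The Nefm probe, with 6 CpGs, read 4.30 in the knockdown and 0.04 in wild type. The Ston2 probe, with 3 CpGs, read −1.30 in the knockdown and 3.95 in wild type. The probes of the last pair read 2.49 and 0.42 in the knockdown, and 2.40 and −0.28 in wild type. A tied probe of the last Sall4 region, also with 5 CpGs, read 2.51 in the knockdown and 0.11 in wild type. The tied probe of 1190002H23Rik read 1.24 in the knockdown and 0.32 in wild type. Tied probes differed by −6.15 at Wnt3a, and by −4.37 and −3.56 at the Sall4 region that was lower.

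The 2 arrays differ in more than genotype. They were scanned on different days with different scanners and read with different versions of Feature Extraction, so batch and group cannot be told apart. The mbd4-/- ES array shares the knockdown's scanner and software version but not its scan day. Bound signal was well above background at 84.5% of probes in the knockdown and 91.1% in wild type. The median background-subtracted bound signal was 42.5 on the knockdown array and 95.1 on the wild-type array, with input at 235 and 205. Probes of a region scattered more on the knockdown array, with a median SD of 1.31 against 0.76 in wild type. The 98th percentile of regions, called the plateau here, was 2.80 in the knockdown and 3.36 in wild type.

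Of the 12824 regions, 976 (7.61%) were higher in the knockdown and 766 (5.97%) were lower, and the median difference was 0.17. The balance between the directions differed between ways of centring and correcting the arrays. With each array centred on the mode of its lower peak, 2511 regions were higher and 458 lower, with a median difference of 0.52. With normexp background correction, which shrinks ratios of dim spots, 102 were higher and 717 lower, with a median difference of 0.0016. With the deposited value table, rescaled as described below and holding 11538 regions, 784 were higher (6.79%) and 1026 lower (8.89%). The lower regions were the better separated ones. In 415 of the 766 lower regions (3.24% of all regions) every knockdown probe lay below every wild-type probe, while in 134 of the 976 higher regions (1.04% of all) every knockdown probe lay above every wild-type probe. Calls were then compared over 9 settings of the values under the same rule: the values as reported, one plateau, centring on the mode, one SD, normexp, removal of the GC trend without and with one plateau, the median over probes, and centring of each chromosome. In all 9 settings 319 regions were lower (2.49% of all regions, 41.6% of the 766) and 69 were higher (0.538% of all, 7.07% of the 976). Probes were apart in 233 of these 319 and in 18 of these 69. The higher regions had a median probe SD of 1.40 in the knockdown and 0.88 in wild type, and the lower ones 0.89 and 0.43. At the edges of the rule, Slc22a5 lay just inside the higher set and Spred3 just inside the lower set, at differences of 1.0005 and −1.0002, and Sept8 and Rnft2 lay just outside.

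**Figure D1:**
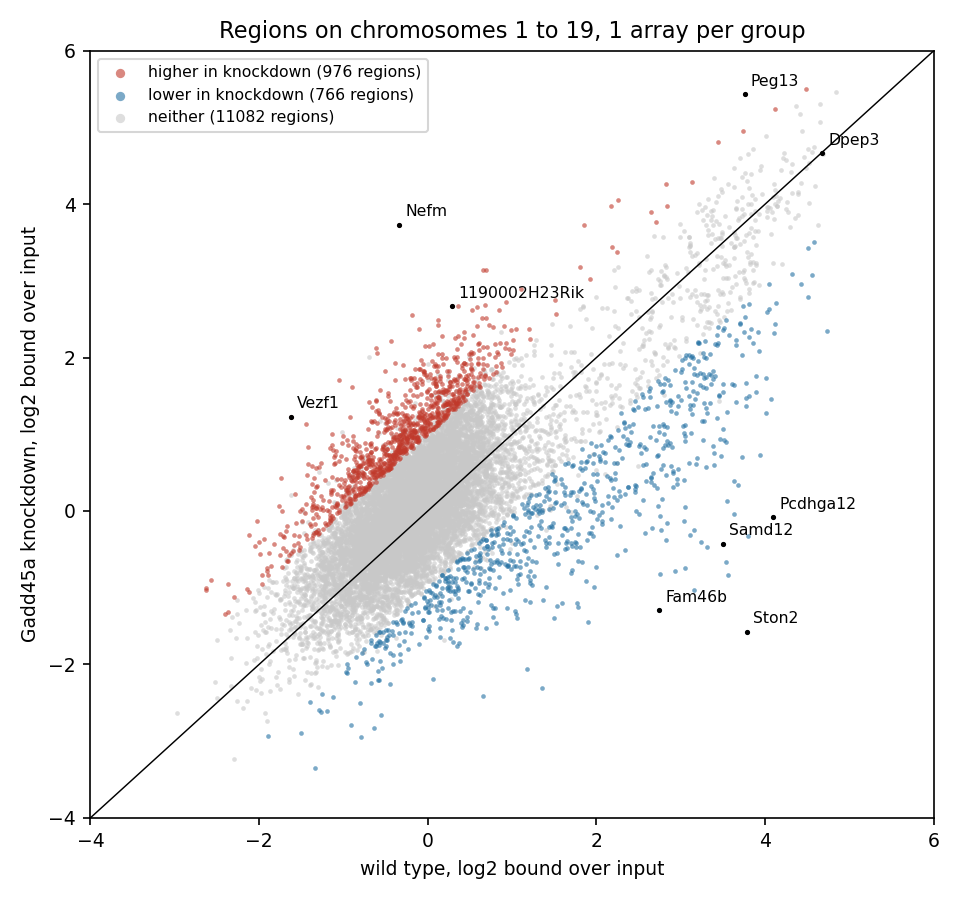
Each point is 1 of 12824 regions, with the mean log2 bound over input of its probes in the Gadd45a knockdown (vertical) and in wild type (horizontal), and the black line marks equal values. The 976 higher regions lie mainly where wild type is near or below 0, and the 766 lower regions include regions with high wild-type values such as Ston2.

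Probe composition and chromosome moved with the difference. Probes under 40% GC had a median of −1.44 in the knockdown and −1.14 in wild type, and probes over 70% GC had 0.98 in the knockdown and 0.52 in wild type. Higher regions had a median GC of 58.5% and lower regions 54.7%, against 56.7% over all regions. Setting both arrays to one plateau gave 1128 higher regions (8.8%) and 739 lower ones (5.76%). Removing the GC trend of each array gave 968 higher (7.55%) and 692 lower (5.4%). With the GC trend of each array removed and both arrays set to one plateau, 1066 regions were higher (8.31%) and 650 lower (5.07%), and 749 and 581 of these were among the original calls. On chromosomes 1 and 11, 14.9% of 1847 regions were higher and 4.06% lower, while on the other 17 autosomes 6.39% were higher and 6.29% lower. Regions that were low on both arrays were shifted there too, by a median of 0.39 on chromosome 1 and 0.37 on chromosome 11, against −0.05 to 0.14 on the others. The input signal itself, knockdown over wild type, was lower by 0.41 and 0.39 (log2) on chromosomes 1 and 11 than on the median autosome. Wild type was the array that stood apart there: on chromosome 11 the input of each of the other 7 arrays was lower relative to wild type, by 0.37 to 0.46, and on chromosome 1 that of 6, all but aid-/- ES cells. The part of these shifts in the calls was not tested beyond centring. Centring each chromosome on its own median gave 922 higher and 751 lower regions, of which 819 and 704 were among the original calls. Chromosomes 1 and 11, with 1847 of the 12824 regions, held 37 of the 69 regions that were higher in all 9 settings (53.6%). Of the 319 that were lower in all 9 settings they held 29 (9.09%).

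Some islands with high values in wild type were low in the knockdown, and most of these were high on each of the other 6 arrays. A region is called high here at 50% or more of its array's own plateau and low under 25% of it. These classes do not change when an array is rescaled, but they can move with centring and background correction. Of the 802 regions high in wild type, 522 (65.1%) were high in the knockdown, 120 were between the limits and 160 (19.95%) were low. The same 802 regions were high in 98.4% of cases on the aid-/- ES array and in 97.0% on the mbd4-/- ES array. In liver and spleen, 90.3% to 92.3% of them were high. The 160 regions that were low in the knockdown and high in wild type (1.25% of all regions) had medians of 0.16 in the knockdown and 2.18 in wild type. Of these 160, 152 were high in aid-/- ES cells, 142 in mbd4-/- ES cells, and 124 to 131 in each tissue array. In 121 of the 160 all knockdown probes lay below all wild-type probes. Over all regions, 415 (3.24%) were lower with probes apart. The 160 were chosen by their levels on these 2 arrays, so the count of 121 follows in part from the choice. The reverse class was larger but noisier: 354 regions (2.76%) were high in the knockdown and low in wild type, with a median probe SD of 1.40 in the knockdown and 0.60 in wild type. Of these 354, 3 were high in aid-/- ES cells and 8 in mbd4-/- ES cells, and 64 had probes apart between the arrays. The 354 too were chosen by level, and 134 of all regions (1.04%) were higher with probes apart. Removing the GC trend reduced the class of 354 to 170 regions and the class of 160 to 141. With centring on the mode of the lower peak they held 425 and 121 regions, and with normexp 436 and 192.

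**Figure D2:**
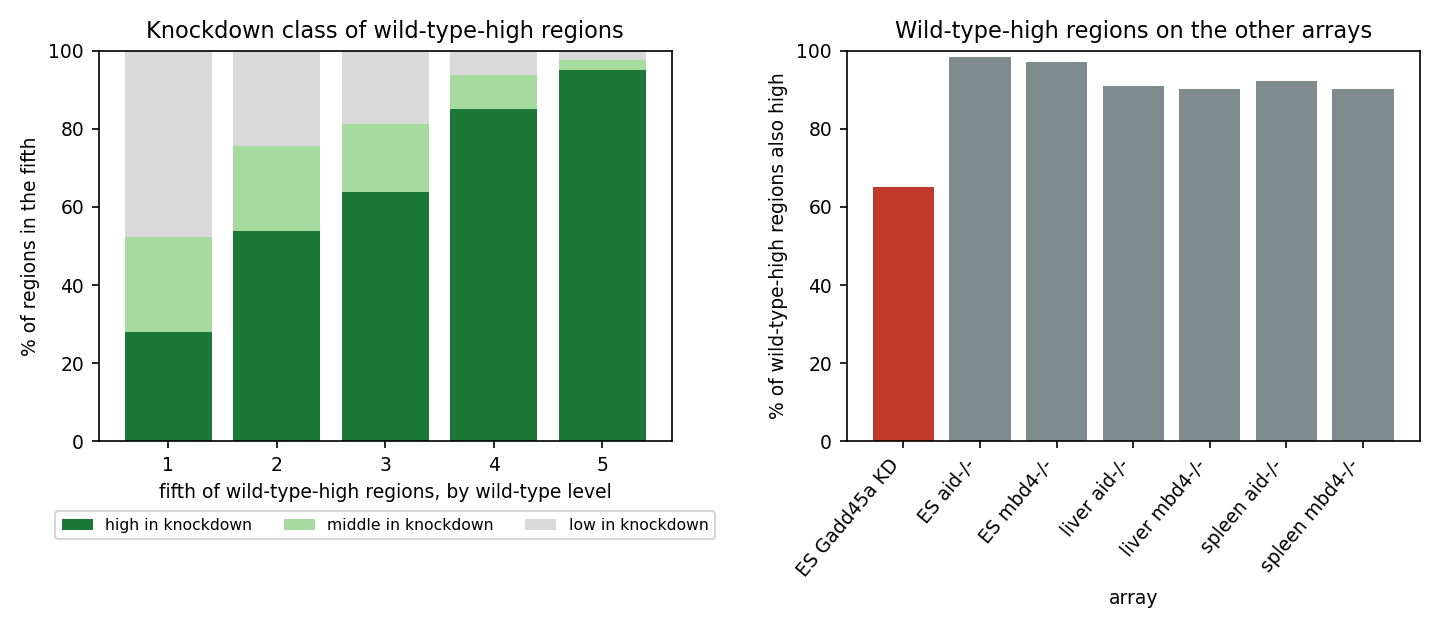
Left, the 802 wild-type-high regions in 5 bins of about equal size by wild-type level, with the percentage that were high, middle or low in the knockdown, relative to the knockdown's own plateau. Right, the percentage of the 802 regions that were high on each of the other 7 arrays, with the knockdown at 65.1% and the remaining arrays at 90.3% to 98.4%.

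The share that was high in the knockdown was larger at higher wild-type levels. In the lowest of 5 bins of the 802 regions, with wild-type values of 1.68 to 2.16, 28.0% were high in the knockdown and 47.8% low. In the top bin, with wild-type values of 3.65 to 4.84, 95.0% were high and 2.48% low. CpG density moved with it less steeply: 13.04% of the bin poorest in CpG were low in the knockdown and 25.5% of the bin richest in CpG. The 5 gene-named regions with the highest values on both arrays were Zfp629, Stab2, Map3k4, Dpep3 and Atxn1, at 4.66 to 5.46 in the knockdown and 4.65 to 4.84 in wild type. None of these 5 differed by 1 or more as measured, and at one plateau Zfp629 and Stab2 differed by 1.59 and Map3k4 by 1.32. The Dpep3 region, at a testis-expressed dipeptidase, read 4.67 ± 0.40 in the knockdown and 4.68 ± 0.71 in wild type (SD over 6 probes).

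Among regions with a gene name that also passed the rule at one plateau, the 15 largest negative differences were lower in all 9 settings, and in 14 of them all knockdown probes lay below all wild-type probes. The 15 were chosen by the size of the difference, so these counts and the levels on the 2 arrays follow in part from the choice. Over all regions, 415 (3.24%) were lower with probes apart. Wild type was high in 14 of the 15, aid-/- ES cells in 14 and mbd4-/- ES cells in 13, and none was high in the knockdown. Ston2, which encodes the endocytic adaptor stonin 2, had the largest of these. Its 6 probes (chromosome 12, 92885819 to 92886620) averaged −1.57 ± 1.33 in the knockdown and 3.79 ± 0.75 in wild type, a difference of −5.36. The knockdown probes at −1.36, −2.51 and −3.63 did not have bound signal well above background. With normexp the Ston2 difference was −3.02. The same region read 4.45 in aid-/- ES cells and 4.77 in mbd4-/- ES cells, so the knockdown was the low one of the 4 ES arrays. Tent5b, a poly(A) polymerase gene listed as Fam46b, read −1.29 ± 0.89 in the knockdown and 2.75 ± 0.46 in wild type. Samd12 and Pcdhgb8 were the 2 that were not high in mbd4-/- ES cells. Samd12 read −0.43 ± 1.29 in the knockdown and 3.50 ± 0.79 in wild type, but mbd4-/- ES cells (−1.12) and the 4 tissue arrays (−0.60 to −0.17) were low as well, and aid-/- ES cells at 4.23 were with wild type.

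The regions with the most probes among those high in wild type and low in the knockdown showed the difference over long stretches. Gm996 (now Ajm1, an apical junction component) had 24 probes on chromosome 2 (25432477 to 25435492), with −0.78 ± 0.94 in the knockdown and 2.93 ± 1.22 in wild type. Slc32a1, the vesicular transporter of the inhibitory transmitters GABA and glycine, had a 12-probe region (chromosome 2, 158439556 to 158440727) at −0.38 ± 1.18 in the knockdown against 2.83 ± 0.86 in wild type. Both were high in aid-/- and mbd4-/- ES cells, at 2.78 to 3.40, and lower in the tissues, where Slc32a1 read −0.96 to 0.03 and Gm996 0.37 to 1.36. Map1s, a microtubule-associated protein gene listed as Mtap1s, had 16 probes at 0.55 ± 1.24 in the knockdown against 2.97 ± 0.71 in wild type. Cilp2, encoding a cartilage matrix protein, had 18 probes at −0.04 ± 1.31 in the knockdown against 2.50 ± 0.56 in wild type. In these long regions single knockdown probes reached into the wild-type range, as 1 probe of Slc32a1 did at 2.40.

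**Figure D3:**
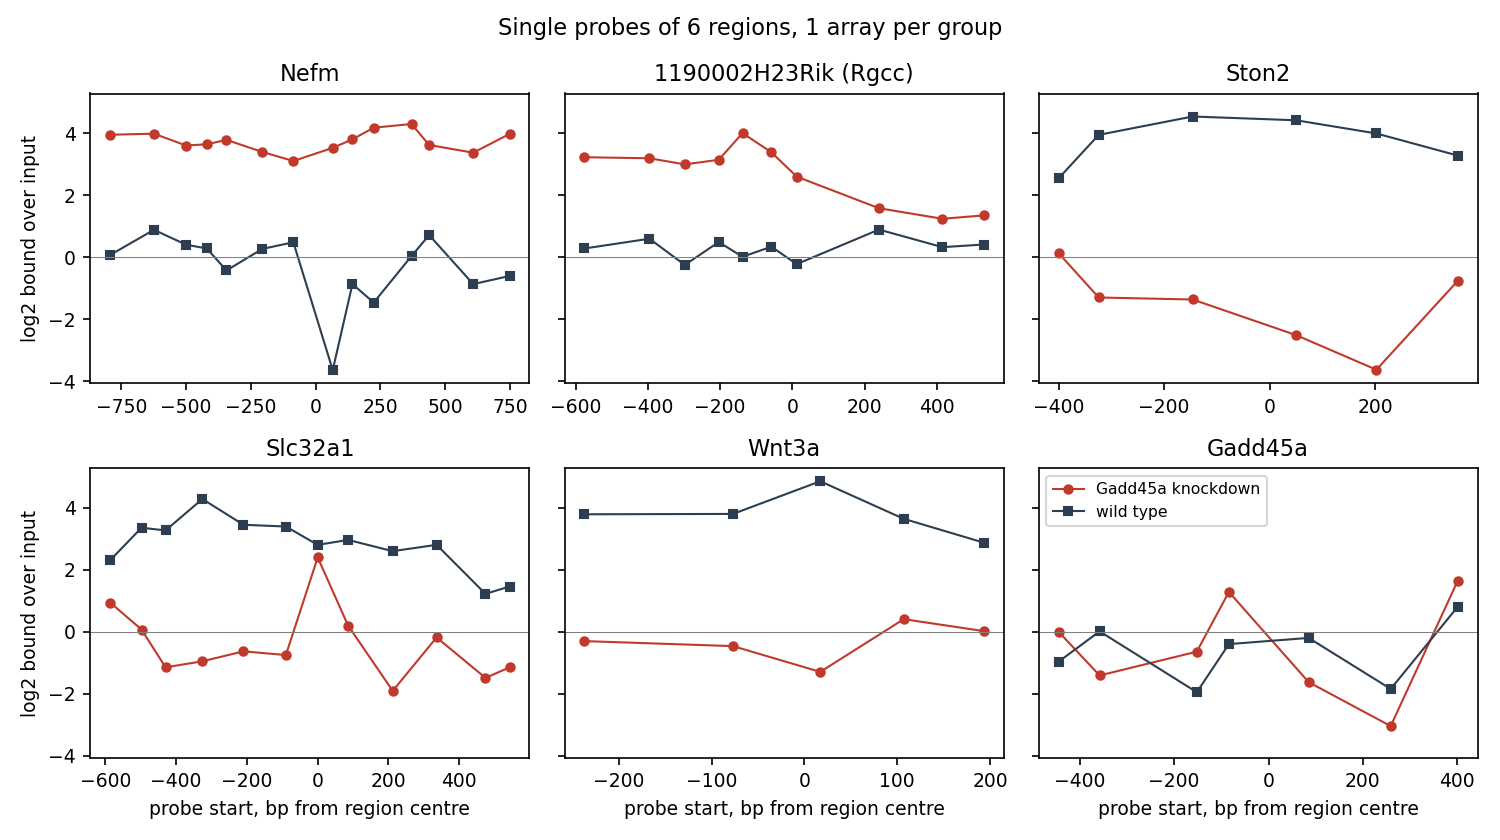
Single-probe log2 bound over input along 6 regions, with distance from the region centre in bp on the horizontal axis, for the Gadd45a knockdown (red circles) and wild type (dark squares). All 14 Nefm probes lie above 3 in the knockdown and below 1 in wild type, all 6 Ston2 and 5 Wnt3a probes are far lower in the knockdown, and the 2 arrays cross repeatedly at Gadd45a.

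Of the 15 genes behind the largest negative differences, 10 had further regions, 17 in all. Of these 17, 12 were neither higher nor lower, 4 were lower and 1 was higher, where 5.97% of all regions were lower and 7.61% higher. All 5 that held a probe inside a RefSeq promoter window (250 bases before to 50 after a gene's start) were among the 12. Most regions with such a probe were neither higher nor lower: of 6745 of them, 542 were higher and 149 lower. Over the whole set, such a promoter probe was found in 52.6% of regions, in 55.5% of the higher regions and in 19.5% of the lower ones, and in 9.72% of those lower in all 9 settings. Among wild-type-high regions it was 7.66% for those high and 8.75% for those low in the knockdown.

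Sall4, a zinc finger factor of pluripotent cells, had 4 regions on chromosome 2. From the lowest position, they read 0.25, 2.35, −0.04 and 0.00 in the knockdown, and 2.46, 2.63, 3.63 and −0.05 in wild type. The first and the third were lower, by 2.21 and 3.67 on the log2 scale, each with probes apart, while the second, lying between them, differed by −0.28. On the aid-/- and mbd4-/- ES arrays the first 3 regions read 3.52 to 4.82. Wnt3, a Wnt ligand needed for gastrulation, had 5 regions on chromosome 11. The region over the annotated promoter window read −0.62 ± 2.04 in the knockdown and 0.29 ± 1.06 in wild type and was neither higher nor lower. The second region was lower by 1.37 on the log2 scale, and the next, of 3 probes, was higher, at 0.56 ± 1.44 in the knockdown against −0.48 ± 1.12 in wild type. The last 2 regions read 0.93 and 0.13 in the knockdown against 2.37 and 3.55 in wild type. The 6 probes of the last region were tight on both arrays, with SDs of 0.32 in the knockdown and 0.23 in wild type.

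Wnt3a, another Wnt ligand, was lower at 1 of 3 regions. That region (chromosome 11, 59063116 to 59063590) read −0.33 ± 0.64 in the knockdown and 3.79 ± 0.71 in wild type, and the 13-probe region at the other end of the gene read 0.76 ± 1.20 in the knockdown and −0.07 ± 0.91 in wild type. Epha2, an Eph receptor tyrosine kinase, had a promoter region at −0.59 ± 0.63 in the knockdown against 0.30 ± 0.35 in wild type. Its region at the highest position read −0.74 ± 1.80 in the knockdown and 3.05 ± 0.33 in wild type. Knockdown probes at −2.62 and −2.24 in this Epha2 region did not have bound signal well above background. The same holds for a knockdown probe at −1.29 in the lower Wnt3a region. Cdkn1a, encoding the p53-induced cell cycle inhibitor p21, had 17 probes at the promoter with 0.08 ± 1.60 in the knockdown and −0.37 ± 0.90 in wild type. A second Cdkn1a region of 3 probes (chromosome 17, 29235369 to 29235583) read 0.57 ± 0.34 in the knockdown and 3.30 ± 0.08 in wild type, with 4.65 and 4.69 in aid-/- and mbd4-/- ES cells. No annotation of exons and introns in build mm9 was used here.

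**Figure D4:**
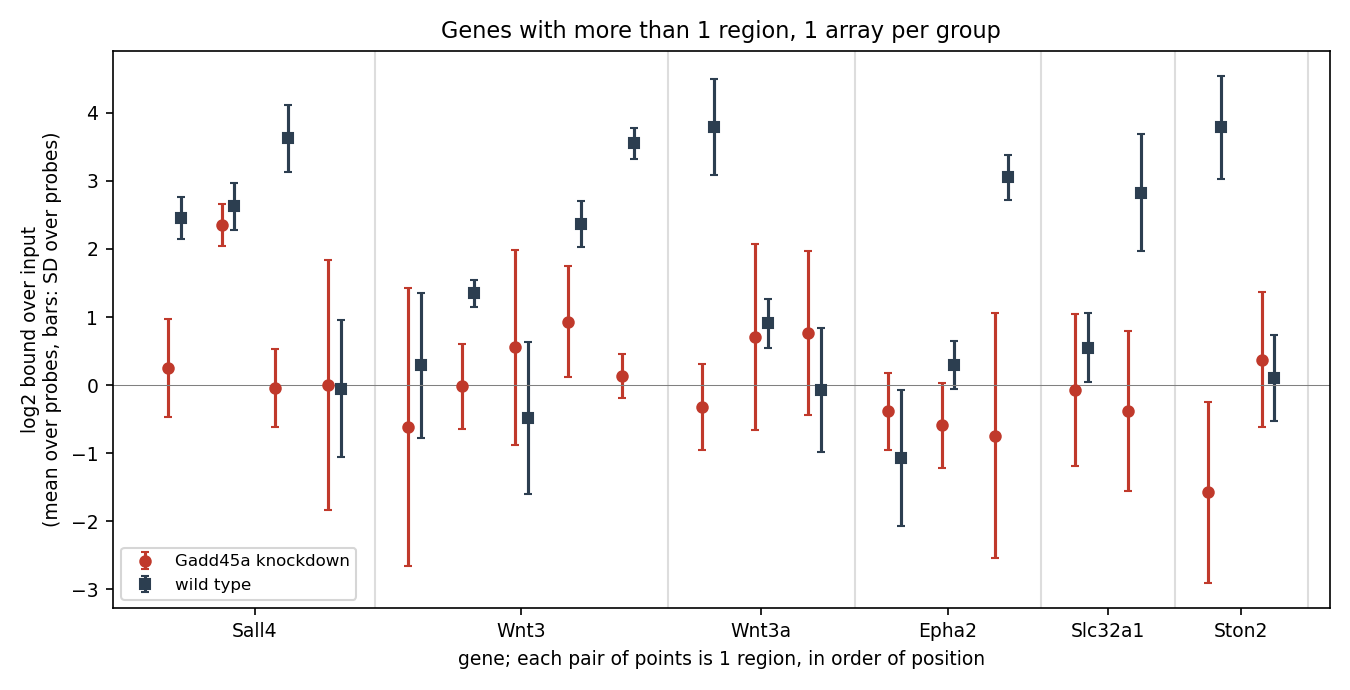
Region means with SD over probes for 6 genes with more than 1 region, in order of position along the chromosome, for the Gadd45a knockdown (red circles) and wild type (dark squares). Within each gene some regions lie far below wild type in the knockdown, such as the Sall4 region at −0.04 against 3.63, while others overlap.

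The regions higher in the knockdown were led by Nefm, which encodes the medium neurofilament subunit of neurons. All 14 probes (chromosome 14, 68741625 to 68743210) were high in the knockdown, from 3.103 to 4.30, while wild-type probes ran from −3.64 to 0.88. The region averaged 3.73 ± 0.33 in the knockdown and −0.34 ± 1.17 in wild type, a difference of 4.07 that ran from 1.95 to 4.42 over 9 alternatives. The mbd4-/- ES array was also high there, at 3.48, and aid-/- ES cells (−0.69) and the 4 tissue arrays (−0.75 to −0.03) were not. 1190002H23Rik, now Rgcc, a regulator of the cell cycle, showed the same arrangement of arrays. Its 10 probes (chromosome 14, 79700578 to 79701729) averaged 2.67 ± 0.95 in the knockdown and 0.29 ± 0.36 in wild type, with 4.10 in mbd4-/- ES cells, −0.08 in aid-/- ES cells and −0.24 to 0.10 in the tissues. With normexp its difference was 0.98, just under the limit.

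The Rgcc region overlaps the gene's RefSeq promoter, which is shown from 250 bases before to 50 after the start (build GRCm38.p6, chr14:79301586-79301885, minus strand) with its 26 CpGs in capitals, against a median of 7 in 32851 promoters. The 2 array probes found in it averaged 1.41 in the knockdown and 0.61 in wild type, below the mean of the region.
Rgcc promoter: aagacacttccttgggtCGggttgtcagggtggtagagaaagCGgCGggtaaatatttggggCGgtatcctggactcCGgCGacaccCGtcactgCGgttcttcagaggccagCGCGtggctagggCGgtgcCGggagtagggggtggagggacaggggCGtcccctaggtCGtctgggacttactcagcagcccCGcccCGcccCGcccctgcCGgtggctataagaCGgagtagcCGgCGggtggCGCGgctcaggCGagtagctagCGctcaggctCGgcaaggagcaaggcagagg

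The other 13 of the 15 largest positive differences, chosen in the same way, were short, with 3 to 6 probes, and none of them was high on any other array, while 13 of the 15 were high in the knockdown. They include Vezf1 (a zinc finger transcription factor), Psma3 (a proteasome subunit), H2afy (the histone variant macroH2A1) and Ldha (lactate dehydrogenase A). Vezf1 read 1.23 ± 2.56 in the knockdown and −1.62 ± 2.00 in wild type. Psma3 read 1.70 ± 2.50 in the knockdown and −1.05 ± 1.63 in wild type. H2afy read 2.56 ± 2.75 in the knockdown and −0.19 ± 0.96 in wild type. In these 3 regions the spread over probes in the knockdown was as large as the region's level or larger. Of the 15, 10 had probes apart between the arrays, 9 were higher in all 9 settings, and under normexp their differences ran from 0.79 to 1.95. These 15 too were chosen by size, and over all regions 134 (1.04%) were higher with probes apart. Wipf2, an actin regulator of the WIP family, was among the cleaner ones at 2.37 ± 0.71 in the knockdown against −0.11 ± 0.69 in wild type over 4 probes. Wipf2 and Vezf1 lie on chromosome 11, where regions low on both arrays were shifted by a median of 0.37. Both were higher in all 9 settings.

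**Figure D5:**
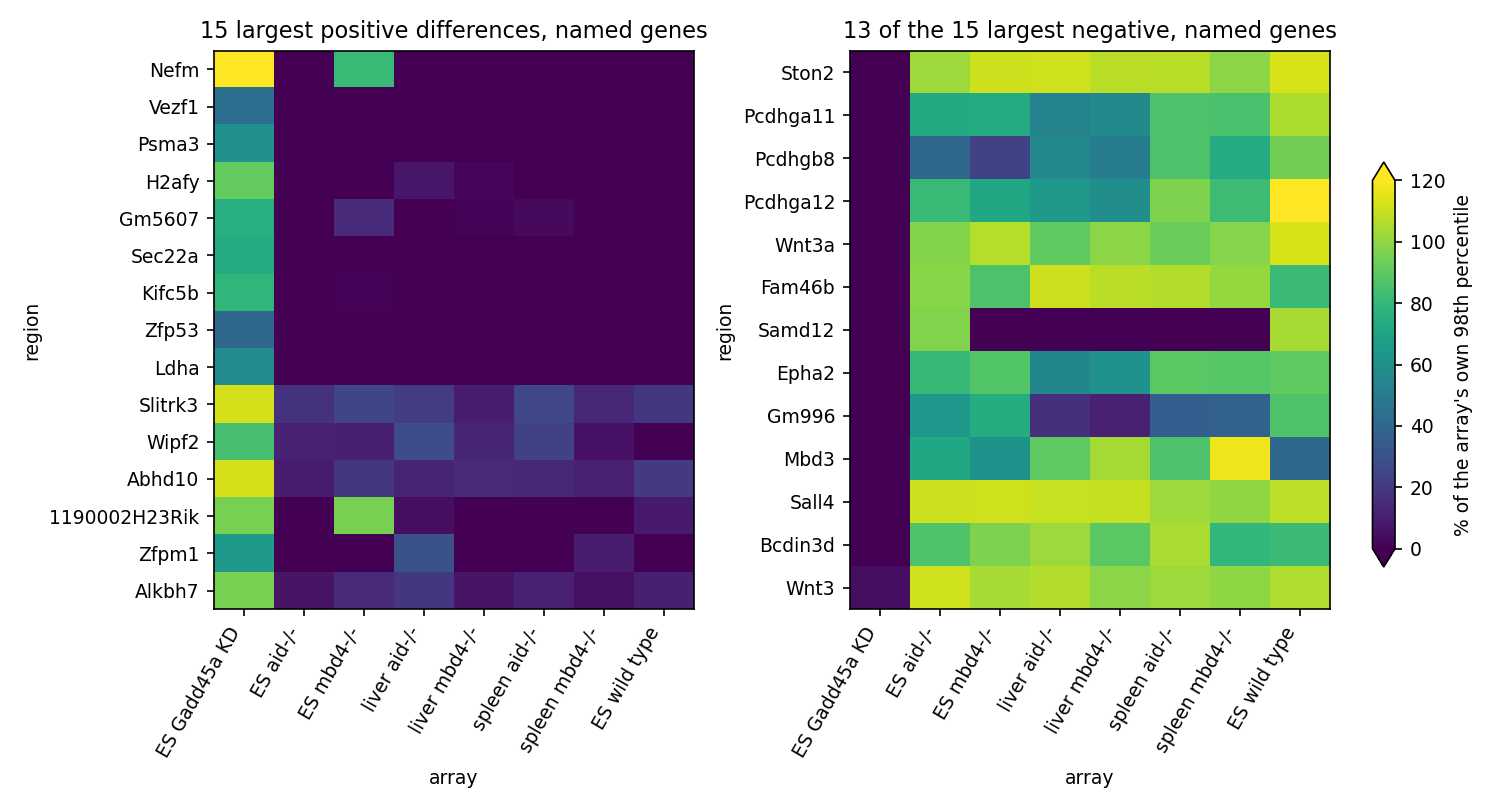
Among gene-named regions, the 15 largest positive differences (left) and 13 of the 15 largest negative ones (right), each as a percentage of the array's own plateau from 0 (dark) to 120 (yellow), with values beyond these limits drawn in the end colours. Apart from Nefm and 1190002H23Rik in mbd4-/- ES cells, no positive region is high outside the knockdown column, and most negative regions are dark in that column alone.

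Gadd45a itself gave no contrast. Its 7 probes (chromosome 6, 66986497 to 66987387) averaged −0.54 ± 1.66 in the knockdown and −0.65 ± 1.00 in wild type, a difference of 0.11. A knockdown acts on the RNA, so this value on DNA does not check it. The list of active demethylation and base excision repair had 30 regions of 26 genes, of which 3 were higher (10%) and 2 lower (6.67%), near the 7.61% and 5.97% of all regions, with a median difference of 0.11 against 0.17. The family members Gadd45b and Gadd45g were at −0.33 over 17 probes and 0.78 over 17 probes, as differences, with neither past the rule. Tet1 and Tet2, which oxidise 5-methylcytosine, differed by 0.10 and 0.19. Tet3 was lower at 1 of 2 regions, with 1.54 ± 0.42 in the knockdown and 3.20 ± 0.64 in wild type over 5 probes. Ing1, a histone reader reported to direct Gadd45a to DNA, was lower at a 4-probe region, with 2.23 ± 0.58 in the knockdown and 3.65 ± 0.24 in wild type, and differed by −0.25 over the 25 probes of its promoter region. At one plateau the Ing1 difference was −0.89, under the limit. The 3 higher regions, Ercc3 (1.60), Taf12 (1.19) and Ercc5 (1.11), all belong to transcription or nucleotide excision repair factors, were below 0 in wild type, and none was higher in all 9 settings.

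For the gene lists, counts are read against all regions, of which 7.61% were higher and 5.97% lower. The Wnt list had 89 regions, 10 of them lower (11.2%) and 3 higher (3.37%), with a median difference of 0.06 against 0.17 over all regions, and 7 were lower in all 9 settings. Beside Wnt3 and Wnt3a, Ror2, a Wnt5a receptor, read 2.35 ± 0.21 in the knockdown and 4.74 ± 0.48 in wild type, and Rspo1, an R-spondin that enhances Wnt signalling, read −0.95 ± 0.74 in the knockdown and 1.07 ± 0.36 in wild type. Eph receptors and ephrins had 35 regions, 7 lower (20%, against 5.97% of all regions) and 1 higher, with a median of 0.01. In all 9 settings 4 of them were lower and none higher. Epha8 read 0.33 ± 0.44 in the knockdown and 2.48 ± 0.51 in wild type, and Ephb3, whose promoter region differed by 0.21, read −0.05 ± 0.68 in the knockdown and 2.03 ± 0.50 in wild type at a second region. Epha8 was lower in all 9 settings, while Ephb3 was not and differed by −0.93 with normexp. Of 62 Hox regions 3 were lower (4.84%) and 2 higher, with a median of −0.02, and of 352 regions of other Polycomb-bound regulators 23 were lower (6.53%) and 14 higher, with a median of 0.01. Both shares of lower regions are near the 5.97% of all regions.

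The gamma protocadherins, which give neurons their surface identity, held several of the largest negative differences. Of 13 alpha and gamma protocadherin regions 4 were lower (30.8%, against 5.97% of all regions) and 1 higher, and the 4 lie in Pcdhga11, Pcdhgb8 and Pcdhga12. They read −1.03 to −0.06 in the knockdown and 2.75 to 4.10 in wild type, and all 4 were lower in all 9 settings. Pcdhgc4, farther along the cluster, read −0.64 ± 1.26 in the knockdown and −0.15 ± 1.02 in wild type over 13 probes. The list of neuronal cytoskeleton and synapse genes split both ways, with 6 of 42 regions higher (14.3%, against 7.61% of all) and 5 lower (11.9%, against 5.97%). In all 9 settings only 1 of the 6, Nefm, was higher, while 4 of the 5 were lower. Beside Nefm and Ston2, Slitrk3 read 3.14 ± 1.65 in the knockdown and 0.65 ± 0.51 in wild type, but was not higher in all 9 settings.

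Germline and imprinted regions that were high in wild type are set here against the 65.1% of all such regions that were high in the knockdown. That share ran from 28.0% in the lowest of 5 bins by wild-type level to 95.0% in the top bin. The lists were not matched for level. Of 33 regions of germline and piRNA genes, which are methylated in most cells outside the germline, 15 were high in wild type, and of those 12 were high in the knockdown and 1 was low. As measured 7 of the 33 were lower (21.2%, against 5.97% of all regions), but 2 at one plateau and none in all 9 settings. Ddx4, the RNA helicase vasa, read 0.96 ± 0.92 in the knockdown and 2.17 ± 0.37 in wild type, and Mael, a piRNA pathway factor, read 1.68 ± 0.49 in the knockdown and 3.05 ± 0.50 in wild type. Of 47 imprinted regions 4 were higher (8.51%) and 2 lower (4.26%), near the shares of all regions, with a median of 0.12, and all 5 that were high in wild type were high in the knockdown. Peg13, an imprinted noncoding RNA gene, read 5.43 ± 0.35 in the knockdown and 3.76 ± 0.64 in wild type over 5 probes, with probes apart. It was higher in all 9 settings, and differed by 0.94 with the deposited table, under the limit. Trappc9, the gene that contains Peg13, differed in both directions, with a lower region at 2.79 ± 0.75 in the knockdown against 4.51 ± 0.28 in wild type and a higher one, of 3 probes, at 1.41 ± 0.92 in the knockdown against 0.33 ± 0.48 in wild type. Neither Trappc9 region was past the rule in all 9 settings.

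Pluripotency genes had 49 regions, 4 lower (8.16%) and 3 higher (6.12%), near the 5.97% and 7.61% of all regions, with a median of 0.24. The 4 were the 2 Sall4 regions, Zscan10 (0.31 ± 1.12 in the knockdown and 2.37 ± 0.49 in wild type), a zinc finger gene of ES cells, and 1 region of the Polycomb cofactor Jarid2, which was higher at another region. In all 9 settings 3 were lower, all but Jarid2, and the higher Jarid2 region was not past the rule in all 9 either. Of 46 regions of Gadd45a partners and p53 response genes, 4 were higher (8.70%) and 2 lower (4.35%), near the shares of all regions, with a median of 0.38. The higher ones were Sesn1, Pmaip1, Cdkn2c and Ccng1, at differences of 1.82, 1.70, 1.39 and 1.11, and none of them was higher in all 9 settings. Pmaip1, encoding the apoptosis factor Noxa, was the one of these 4 with probes apart, at 2.42 ± 0.50 in the knockdown against 0.73 ± 0.47 in wild type over 6 probes. In the list of DNA methylation enzymes and readers, Mbd3, a NuRD complex subunit, and Kdm2b, a demethylase that binds unmethylated CpG islands, were the 2 lower of 31 regions (6.45%, near the share of all regions), with none higher. Kdm2b was lower at 1 of 5 regions, at 0.60 ± 0.61 in the knockdown against 3.40 ± 0.61 in wild type. Housekeeping genes had 3 of 42 regions higher (7.14%, near the 7.61% of all regions) and none lower, with a median of 0.35 against 0.17 over all regions, and core histones 1 of 16 higher and none lower, with a median of 0.43.

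Markers of other cells were looked at in the same way. Of 18 regions of fibroblast genes, which feeder cells would carry, 1 was higher (Pdgfra, 1.01) and 1 lower (Loxl2, −1.59), with a median of 0.07. Each is 5.56% of the list, near the 7.61% higher and 5.97% lower of all regions. Of 15 blood and immune regions 3 were lower (20%, against 5.97% of all regions), of Lyl1 and Zap70, with a median of −0.34. At one plateau 2 of the 15 were lower, with a median of −0.13, and 1 was lower in all 9 settings. The single liver gene region, F2, read 1.52 ± 0.48 in the knockdown and 3.46 ± 0.32 in wild type. Whether other cells were present in either culture was not tested, since bound DNA does not measure expression.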

How the data were processed

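Deposited scanner files hold spot intensity values written by Agilent Feature Extraction, per the file headers: processed signals, background-subtracted and dye-normalised with a linear factor, for Cy3 and Cy5. The log10 ratio in the deposited files was used to check direction. A further deposited table, used as an alternative, gives a score per probe with mean 0 and SD 1 on each array. For that alternative the scores were centred on their median and multiplied by the mean SD of the log2 ratios over all arrays. Its differences are therefore not log2 ratios of the scanner values, and probes without a score on both arrays were left out. The median of the deposited scores was −0.0976 for the knockdown and −0.0293 for wild type, and the sources used here do not give how the authors made them.

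Of 88737 probes, 78888 were used. The others lay off chromosomes 1 to 19, were outliers on an array, or had input that did not clear background on each array. Each array's log2 ratio was centred on its median. Neither loess nor quantile normalisation was applied. Precision is limited by the number of arrays, and SDs over probes are not replicate error. Files name genes as in the array design, and names were updated through a RefSeq table (GRCm38.p6), which matched 9208 of 10247 names directly and 980 as older synonyms. Promoter probes were found by exact sequence match to RefSeq promoters. The alternative normexp correction (limma 3.58.1, offset 50) used the median signal, since the mean signal is not in the wild-type file used here.

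The members and lists were chosen with earlier results of these data known. Named regions are Gadd45a and the demethylation list, the 15 largest differences in each direction that also passed at one plateau, up to 4 per gene list and direction, the 5 with most probes per switching class, the 5 highest on both arrays, and other regions of these genes or clusters. The region rule was tested on simulated data. Python 3.11.15, numpy 2.4.6 and pandas 2.3.3 were used. Some regions that this rule names are not reported here.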

Additional observations from a re-analysis of the deposited data

How the results depend on the processing

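With 1 array per group no replicate could be left out, no test was made, and the difference between arrays cannot be separated from scanner, software version or day. No paired analysis was possible because the labels give no replicate numbers and each group has 1 array. The centring on each chromosome's median and the rule that probes of the arrays do not overlap were chosen after seeing the data. Of 87 overall values under alternatives, 69 stayed within 1.5 times the count reported, or within 0.1 (log2) of the median reported, and 18 did not. Some of the 69 could not move. Changing the size or share in the rule leaves the median and the classes high on one array and low on the other unchanged. Rescaling an array leaves those classes unchanged too, since they use its own plateau. Centring on the mode of the lower peak gave 2511 higher and 458 lower regions with a median difference of 0.52, and normexp gave 102 higher regions with a median of 0.0016, of which 87 were among the 976. The deposited table, over 11538 regions, gave a median of 0.065 and 208 regions high in the knockdown and low in wild type, against 354 as reported. Removing the GC trend gave 170 without and 170 with one plateau, a rescaling that cannot change this class. With at least 5 probes there were 476 higher and 326 lower regions, 73 high in wild type and low in the knockdown and 567 high in the knockdown and low in wild type, over 7684 regions and with the plateau taken anew over them. A difference of at least 1.5 left 237 higher and 382 lower regions, all probes in 1 direction left 596 higher, and probes apart left 134 higher and 415 lower. Among single named regions 58 of 900 differences moved by more than the spread over probes and no difference past the rule changed sign. These regions were chosen for passing the rule, which makes a change of sign unlikely, and 96 of the 900 differences were under 1 in size. For gene lists, 61 of 153 medians, 50 of 153 counts of higher regions and 22 of 153 counts of lower regions moved. Apart from these constructions the cause was not tested.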
